A study of Homo sapiens with 6 samples.

Results

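The genes described here were PDGFRB and 9 other receptor tyrosine kinases, found by name among the 58735 genes of the expression table: the PDGF receptors PDGFRB and PDGFRA, the hepatocyte growth factor receptor MET, the ephrin receptors EPHA2 and EPHB4, the insulin-family receptors IGF1R and INSR, the FGF receptor FGFR1, the collagen receptor DDR1 and the TAM-family receptor TYRO3. All 10 were in the table. They were chosen by name with their measured difference between inhibitor and DMSO in view, so that difference is given below as a description and without a test. Of the 10, 9 reached 1 FPKM in at least 3 of the 6 libraries, the minimum for entering the fit across genes; PDGFRA did not. FPKM counts fragments per kilobase of a gene, relative to the size of the library.

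Receptor tyrosine kinases are cell-surface receptors that carry a kinase in their intracellular part. A bound ligand brings receptor chains together, the chains phosphorylate each other on tyrosine, and adaptor proteins that read phosphotyrosine carry the signal to the RAS-MAPK and PI3K pathways. Phosphatases, ubiquitin ligases and feedback inhibitors of the Sprouty and Spred families then damp the signal. In pancreatic tumours PDGFRB is best known as a receptor of fibroblasts and pericytes, whereas MET, EPHA2 and the receptors of the insulin and EGF families are common on the carcinoma cells.

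RNA was sequenced from BxPC-3, an established human line from a pancreatic adenocarcinoma grown in serum-containing medium, in 2 groups of 3 libraries. Cells of one group had received the vehicle DMSO. Those of the other group had received GSK3326595, a small molecule that inhibits the arginine methyltransferase PRMT5. The series title places the work in Hippo signalling and MST2; its design text speaks of a knockdown, whereas the library labels name the inhibitor and were followed. The sources used here give neither dose nor duration, and do not say whether replicates came from separate cultures. The p-values therefore speak only of the spread among these libraries, which may be technical. A single line stands behind every library, so nothing here speaks of other pancreatic cancer cells.

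Whole reads could be recovered from the deposited values and came to between 14087260 and 15724750 per library. The PRMT5 transcript read 23.2, 24.6 and 26.2 FPKM in DMSO against 13.4, 12.8 and 12.1 FPKM under the inhibitor. It fell by 0.90 on the log2(FPKM + 1) scale (limma adjusted p = 0.00493). From this value the inhibitor of the labels and the knockdown of the design text cannot be told apart. Inhibitor replicate 2 stood apart. Mitochondrial transcripts took 11.3% of its reads, against 4.70% to 6.03% elsewhere, and genes of 7000 bases or more took 43.2% of its reads from nuclear protein-coding genes, against 33.0% to 34.2% elsewhere. Of the 18 duct and epithelial markers, 9 reached 1 FPKM in 3 libraries, led by KRT8, KRT18, KRT17 and KRT7; no library held a read of PDX1, KRT19, ESRP1 or CEACAM6 (0 reads each), and CDH1 and EPCAM had no value above 0.496 FPKM. BxPC-3 is known as an epithelial line with KRT19, CDH1 and EPCAM, so these values go against the labelled cell line, which is named here as the labels give it. Markers of leukocytes summed to no more than 0.849 FPKM and those of neural crest and Schwann cells to no more than 0.301 FPKM in any library. Of the 9 endothelial markers, 3 entered the fit, with sums of 46.0 to 54.7 FPKM in DMSO against 18.3 to 49.0 FPKM under the inhibitor, while PECAM1 had no value above 0.0393 FPKM. By limma (adjusted p under 0.05), 2 of these 3 fell, against 10.0% of all genes tested. They were ESAM and CDH5, the latter in the fit only through the DMSO libraries. Of the 9 epithelial markers tested, 1 rose and 2 fell, against 7.18% and 10.0% of all genes tested. Without inhibitor replicate 2, 4 rose and 4 fell, against 17.5% and 23.1% of all genes. The part of these markers in the results below was not tested.

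The 250 bases upstream of the RefSeq start sites of PDGFRB and EPHA2 are shown because these receptors had the largest positive and the largest negative difference of the 10. They are written 5′ to 3′ on the strand of the gene, and they come from RefSeq on GRCh38.p14. Capitals mark a CCAAT box (CCAAT, bound by NF-Y), a GC box (GGGCGG, bound by SP1) or the core of the TEAD motif (GGAATG), found by exact letters on either strand. The PDGFRB window lies at chr5:150155846-150156095 (minus strand) and the EPHA2 window at chr1:16156070-16156319 (minus strand).
PDGFRB: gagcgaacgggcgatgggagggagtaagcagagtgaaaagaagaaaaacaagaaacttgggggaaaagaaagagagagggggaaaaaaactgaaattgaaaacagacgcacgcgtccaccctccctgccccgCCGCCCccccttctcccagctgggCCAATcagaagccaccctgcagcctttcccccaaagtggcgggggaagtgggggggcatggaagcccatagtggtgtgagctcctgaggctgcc
EPHA2: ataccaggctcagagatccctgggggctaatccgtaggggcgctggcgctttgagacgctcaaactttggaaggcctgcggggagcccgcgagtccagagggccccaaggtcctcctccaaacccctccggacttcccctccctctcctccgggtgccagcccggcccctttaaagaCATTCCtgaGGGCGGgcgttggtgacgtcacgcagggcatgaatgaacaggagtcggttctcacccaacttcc

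In the PDGFRB window a CCAAT box began 94 bases before the start site and a GC box, on the opposite strand, 118 bases before it. The EPHA2 window held a TEAD core on the opposite strand 73 bases before the start site and a GC box 64 bases before it; the motifs did not overlap. Of the 35116 windows of this length in the RefSeq table, 32.0% held a CCAAT box, 42.6% a GC box and 11.9% a TEAD core. Also searched were the TATA box (TATAAA, 10.7% of windows), the AP-1 motif (TGANTCA, 6.57%) and the E-box (CACGTG, 6.34%), none of which had a match in the PDGFRB and EPHA2 windows. The table matched 9 of the 10 receptors by symbol, with 18 start sites, 8 of them of DDR1. In at least 1 window, a GC box was found for all 9, a CCAAT box for 4 (PDGFRB, PDGFRA, EPHB4 and DDR1), a TEAD core for 2 (EPHA2 and DDR1) and an AP-1 motif for 3 (PDGFRA, DDR1 and TYRO3); DDR1, PDGFRA and TYRO3 have more than 1 window, so these counts cannot be set against the share of single windows. The PDGFRB window held 9 CpG dinucleotides and the EPHA2 window 15, against a median of 11 over all windows. A match is a run of letters and not a measured binding site.

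PDGFRB, the receptor for PDGF-BB and PDGF-DD (ENSG00000113721, chromosome 5, 150113837 to 150155872, minus strand, hg38), was among the least abundant of the 10 receptors in DMSO and showed their largest positive difference. The values were 1.19, 0.861 and 1.05 FPKM in the DMSO libraries and 4.09, 4.77 and 5.09 FPKM in the inhibitor libraries. All 3 inhibitor libraries were above all 3 DMSO libraries, and the lowest inhibitor value was several times the highest DMSO value. The means were 1.03 ± 0.166 and 4.65 ± 0.512 FPKM (SD, n = 3 each), a ratio of 4.49. On the log2(FPKM + 1) scale, which understates differences of low values, the difference was 1.47 (SE 0.13), and on recovered reads, with limma-voom, it was 2.17 (SE 0.18). Without inhibitor replicate 2 it was 1.45 (SE 0.13), and leaving out each library in turn gave 1.41 to 1.55. The library that stood apart did not decide the value. It ranked 79 from the top among the 13578 genes tested.

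Counting error was small beside this difference. The DMSO libraries held 133, 90 and 111 reads of PDGFRB and the inhibitor libraries 478, 456 and 592. The exact 95% Poisson intervals, which cover counting error only, ran from 0.692 to 1.41 FPKM over the DMSO libraries and from 3.73 to 5.51 FPKM over the inhibitor libraries.

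CSF1R, the receptor of macrophages, lies on the same strand and begins 464 bases beyond the 3′ end of PDGFRB (chromosome 5, 150053291 to 150113372). Its values were 0.968, 1.17 and 0.997 FPKM in DMSO against 0.971, 0.841 and 1.02 FPKM under the inhibitor, so its groups overlapped. It reached 1 FPKM in fewer than 3 libraries and was not tested. Whether PDGFRB and CSF1R differ in their response was not tested. No other gene of the table overlapped PDGFRB.

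PDGFRA, the paralogue that binds PDGF-AA and PDGF-CC (ENSG00000134853, chromosome 4, 54229097 to 54298247), had 0 reads in each of the 6 libraries. A count of 0 allows 3 reads, which over the 6 libraries correspond to 0.00338 FPKM, so the gene was not detected at this depth in either group. The protein-coding gene AC058822.1 (53377839 to 54295272) overlaps PDGFRA on the same strand and also had 0 reads. How reads shared by both genes were counted is not given, so the limit holds only for reads assigned to PDGFRA. KIT and KDR, the receptors that neighbour PDGFRA on chromosome 4, also had 0 reads in all libraries, with limits of 0.00591 and 0.00501 FPKM.

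**Figure D1:**
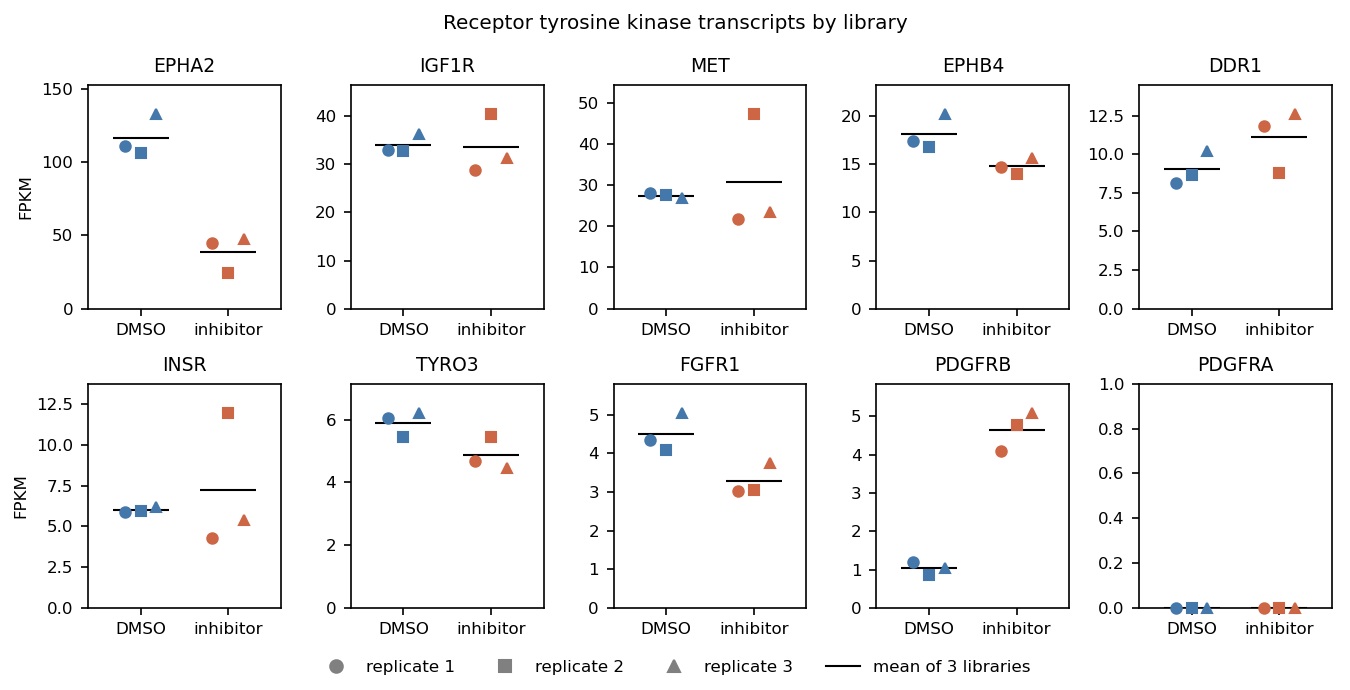
FPKM of the 10 receptors in each library, ordered by their DMSO mean; each panel has its own linear axis from 0, symbols are replicates and the line is the mean of 3 libraries. PDGFRB is higher in every inhibitor library and EPHA2 lower in every one, while inhibitor replicate 2 (square) lies far above the other 5 libraries for MET and INSR, and PDGFRA is at 0 throughout.

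Because PDGFRB marks stromal cells, the markers of fibroblasts, stellate cells and pericytes are given beside it. Of the 20 listed, 8 reached 1 FPKM in 3 libraries, among them VIM and MCAM, and COL1A2, LUM, PDPN, POSTN and CDH11 had 0 reads in every library. Their summed level was 181 to 191 FPKM in DMSO against 172 to 191 FPKM under the inhibitor, so the groups overlapped. Across all genes tested, limma called 7.18% higher and 10.0% lower with the inhibitor at an adjusted p under 0.05. Of these 8 markers 0 rose and 1 fell, MCAM (log2 difference −0.79, limma adjusted p = 0.0178). At an unadjusted p under 0.05 there were 2 higher and 2 lower, against 1985 and 2712 of all 13578 genes. Limma-voom called 1 higher and 1 lower, against 8.01% and 10.8% of all genes. Leaving out inhibitor replicate 2 gave 2 higher and 2 lower, against 17.5% and 23.1% of all genes. Of the 12 markers too low to enter the fit, ACTA2 and RGS5 were picked out because their means were higher with the inhibitor. How many of the 12 were lower is not given here. ACTA2 had means of 0.0523 ± 0.0137 and 0.353 ± 0.197 FPKM in the DMSO and inhibitor libraries (SD, n = 3 each). For RGS5 the means were 0.0522 ± 0.0256 and 0.187 ± 0.0877 FPKM. Both lay far below the minimum of 1 FPKM. In bulk RNA, more cells with a transcript and more transcript per cell cannot be told apart. Whether these markers have a part in the PDGFRB difference was not tested.

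The 5 protein-coding genes whose profile over the 6 libraries was nearest to that of PDGFRB were TNS2, SNED1, VAV3, METTL7A and NPY4R. Likeness was the root mean square distance of log2(FPKM + 1) values, each gene less its own DMSO mean, over 6 libraries and 10563 genes. TNS2, which encodes a tensin that binds phosphotyrosine at focal adhesions, was the nearest at 0.0772, with means of 1.35 ± 0.0896 FPKM in DMSO against 5.23 ± 0.510 FPKM under the inhibitor (SD, n = 3 each). SNED1, an extracellular matrix gene, followed at 0.102, VAV3 at 0.106, METTL7A at 0.124 and NPY4R at 0.126. METTL7A, NPY4R and VAV3 had DMSO means of 0.156, 0.350 and 0.901 FPKM, below the minimum of 1 FPKM. They entered the fit only through the inhibitor libraries and so had to be higher there, as PDGFRB was. NPY4R has a close copy, so the division of its reads is uncertain.

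EPHA2, the ephrin-A receptor that responds to ligands on neighbouring cells (ENSG00000142627, chromosome 1, 16124337 to 16156087, minus strand), was the most abundant of the 10 in DMSO and had the largest negative difference. Its values were 111, 106 and 133 FPKM in DMSO against 44.5, 24.2 and 47.4 FPKM under the inhibitor. Every inhibitor library was below every DMSO library, and inhibitor replicate 2 was the lowest. The means were 117 ± 14.4 and 38.7 ± 12.7 FPKM (SD, n = 3 each), 3.01 times higher in DMSO. The log2 difference was −1.62 (SE 0.27), −1.32 (SE 0.11) without inhibitor replicate 2 and −1.53 (SE 0.23) with a smooth trend on gene length removed. EPHA2 ranked 124 from the bottom among the genes tested. An antisense gene, AL451042.2, overlaps its 5′ end, but held 237 reads over the 6 libraries against 29432 for EPHA2.

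EPHB4, the receptor for ephrin-B2 (ENSG00000196411, chromosome 7, 100802565 to 100827521, minus strand), differed less. Its values were 17.4, 16.8 and 20.2 FPKM in DMSO against 14.7, 14.0 and 15.6 FPKM under the inhibitor. The groups did not overlap, but the gap between them was smaller than the range within DMSO. The log2 difference was −0.28 (SE 0.12), and −0.24 (SE 0.09) without inhibitor replicate 2; after quantile normalization it was −0.13. SLC12A9 overlaps EPHB4 on the other strand and held 2276 reads against 9656 for EPHB4; since use of strand in counting is not stated, the 2 cannot be fully separated.

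MET, the receptor for hepatocyte growth factor (ENSG00000105976, chromosome 7, 116672390 to 116798386), depended on 1 library. Its values were 27.9, 27.5 and 26.9 FPKM in DMSO against 21.7, 47.3 and 23.6 FPKM under the inhibitor. Inhibitor replicates 1 and 3 were below all DMSO libraries, and inhibitor replicate 2 was above all of them. The difference was 0.07 (SE 0.29) with all libraries and −0.27 (SE 0.06) without inhibitor replicate 2. Removing the trend on gene length left inhibitor replicate 2 at 0.71 above the DMSO mean on the log2 scale, against 0.76 before. The part of gene length in this value was not tested further.

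The insulin-family receptors showed the same split. IGF1R (ENSG00000140443, chromosome 15, 98648539 to 98964530) read 33.1, 32.8 and 36.2 FPKM in DMSO against 28.9, 40.5 and 31.2 FPKM under the inhibitor. INSR, the insulin receptor (ENSG00000171105, chromosome 19, 7112255 to 7294034, minus strand), read 5.89, 5.97 and 6.17 FPKM in DMSO against 4.31, 12.0 and 5.40 FPKM under the inhibitor. For both, inhibitor replicate 2 was the highest of the 6 libraries and the other 2 inhibitor libraries were below all DMSO libraries. The log2 difference of IGF1R was −0.03 (SE 0.15), and −0.17 (SE 0.07) without that library. For INSR it was 0.12 (SE 0.32), and −0.27 (SE 0.10) without it. With the length trend removed, inhibitor replicate 2 moved from 0.25 to −0.17 relative to the DMSO mean for IGF1R, and from 0.89 to 0.60 for INSR. Antisense gene AC069029.1 lies within IGF1R and held 1233 reads against 42615 for IGF1R.

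FGFR1, a receptor for fibroblast growth factors (ENSG00000077782, chromosome 8, 38400215 to 38468834, minus strand), read 4.34, 4.09 and 5.05 FPKM in DMSO against 3.02, 3.06 and 3.74 FPKM under the inhibitor. The inhibitor libraries were all below the DMSO libraries. The log2 difference was −0.36 (SE 0.13), −0.33 (SE 0.12) without inhibitor replicate 2 and −0.51 (SE 0.18) with the length trend removed.

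TYRO3, which binds GAS6 and protein S (ENSG00000092445, chromosome 15, 41557675 to 41583586), read 6.04, 5.46 and 6.21 FPKM in DMSO against 4.68, 5.45 and 4.45 FPKM under the inhibitor. DMSO replicate 2 and inhibitor replicate 2 all but touched. The log2 difference was −0.24 (SE 0.12), and −0.31 (SE 0.08) without inhibitor replicate 2.

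DDR1, a receptor activated by collagen (ENSG00000204580, chromosome 6, 30876421 to 30900156), was the other member besides PDGFRB with higher values in inhibitor replicates 1 and 3. Its values were 8.16, 8.67 and 10.2 FPKM in DMSO against 11.8, 8.80 and 12.6 FPKM under the inhibitor, where replicate 2 lay within the DMSO range. The log2 difference was 0.26 (SE 0.16), and 0.41 (SE 0.10) without inhibitor replicate 2.

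**Figure D2:**
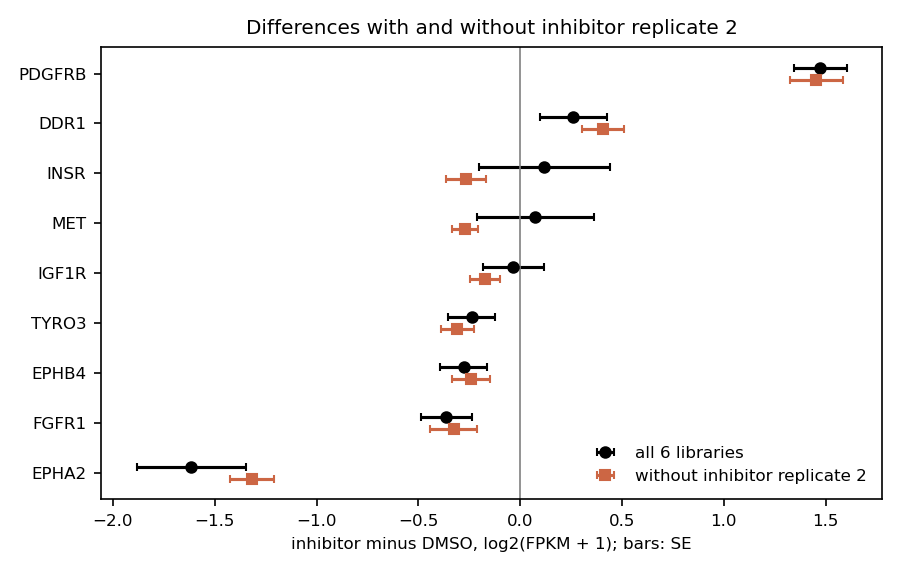
Difference of inhibitor minus DMSO on the log2(FPKM + 1) scale for the 9 receptors in the fit, with all 6 libraries (circles) and without inhibitor replicate 2 (squares); bars are standard errors. PDGFRB stays at 1.47 and 1.45, whereas MET moves from 0.07 to −0.27 and INSR from 0.12 to −0.27.

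By the fit across all genes (limma, adjusted p under 0.05), 2 of the 9 receptors tested were called, PDGFRB higher and EPHA2 lower, against 17.2% of all genes tested (7.18% higher and 10.0% lower). The groups did not overlap for 5 of the 9, against 45.9% of all genes tested. Without inhibitor replicate 2, 5 of 9 were called, against 40.6% of all genes: PDGFRB and DDR1 higher, and EPHA2, MET and TYRO3 lower. Since these receptors were chosen on this contrast, nothing is read from the counts. EPHA2 was not called without any 1 of the 3 DMSO libraries.

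In DMSO the receptors ran in the order EPHA2, IGF1R, MET, EPHB4, DDR1, INSR, TYRO3, FGFR1, PDGFRB and PDGFRA by FPKM. Only INSR (6.01 ± 0.144 FPKM) and TYRO3 (5.90 ± 0.395 FPKM; SD, n = 3 each) overlapped as neighbours. The largest steps were from EPHA2 to IGF1R (3.43-fold) and from FGFR1 to PDGFRB (4.34-fold). With the inhibitor, PDGFRB was above FGFR1 in all 3 libraries and above TYRO3 in replicate 3. EPHA2 was again the most abundant in inhibitor replicates 1 and 3, but lay behind MET and IGF1R in replicate 2.

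Set among all 58 human receptor tyrosine kinases, the 10 receptors held a large share of the transcript. Summed FPKM over the 58 genes was 365, 353 and 404 in DMSO and 276, 319 and 298 with the inhibitor. Without EPHA2 the sums were 254, 247 and 271 in DMSO and 232, 294 and 251 with the inhibitor, so the groups overlapped. The 10 receptors made up 58.9% to 60.6% of the sum in DMSO and 49.8% to 50.2% with the inhibitor. EPHA2 alone took 30.0% to 32.9% in DMSO and 16.1%, 7.58% and 15.9% with the inhibitor. PDGFRB made up 0.244% to 0.327% of the sum in DMSO and 1.48% to 1.71% with the inhibitor, a small part of the receptor transcript in both groups.

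**Figure D3:**
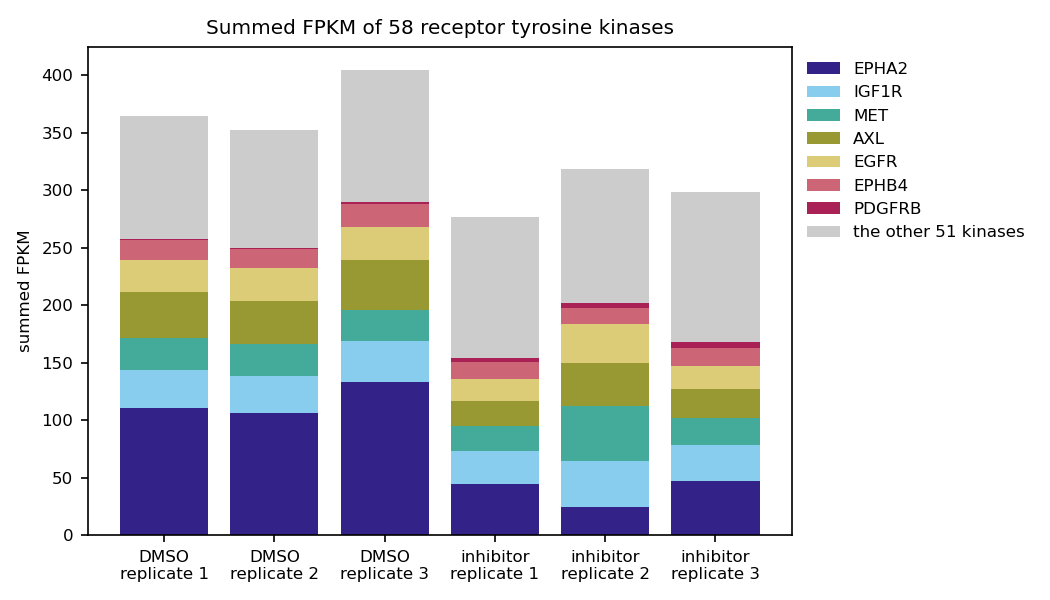
Summed FPKM of 58 receptor tyrosine kinases in each library, divided by gene (stacked bars from 0). The EPHA2 segment is shorter in each inhibitor library than in any DMSO library, and PDGFRB is a thin segment in every library.

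Of the other 48 receptor tyrosine kinases, 12 entered the fit and 10 had 0 reads in every library. By limma 2 rose and 0 fell, against 7.18% and 10.0% of all genes. At an unadjusted p under 0.05, 3 were higher and 1 lower, against 1985 and 2712 of all 13578 genes. Limma-voom also called 2 higher and 0 lower, against 8.01% and 10.8% of all genes. The median log2 difference of the 12 was 0.14, against −0.05 over all genes tested. ERBB3, the neuregulin receptor that lacks strong kinase activity, rose from 0.286 ± 0.0541 to 1.63 ± 0.179 FPKM (SD, n = 3 each; log2 difference 1.03, limma adjusted p = 0.00624). It entered the fit only through the inhibitor libraries, so it had to differ; without it 1 of 11 rose and the median was 0.05. AATK, an endosomal kinase of the LMTK family, rose from 2.02 ± 0.308 to 5.03 ± 0.855 FPKM (0.99, adjusted p = 0.0107; the highest adjusted p without 1 library was 0.0568). The most abundant of these receptors were not called with all libraries. AXL, TYRO3's relative, read 39.9, 37.6 and 43.1 FPKM in DMSO against 21.7, 37.4 and 24.7 FPKM under the inhibitor (−0.55, adjusted p = 0.119). EGFR read 27.7, 28.3 and 28.9 FPKM in DMSO against 18.6, 34.2 and 20.6 FPKM under the inhibitor (−0.25, adjusted p = 0.468). For AXL inhibitor replicate 2 lay just below the lowest DMSO library, and for EGFR it lay above the highest. Both were called lower without that library (−0.77, adjusted p = 0.0019, and −0.51, adjusted p = 0.00295). FGFR3, a sister gene of FGFR1, had a difference of −0.07 (adjusted p = 0.851), and of 0.20 (adjusted p = 0.0718) without that library. Leaving that library out, 4 of the 12 rose and 2 fell, against 17.5% and 23.1% of all genes.

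The ligands were sparse. Of 36 genes for ligands of the 10 receptors, 12 entered the fit and 14 had 0 reads in every library, among them HGF, the ligand of MET, and IGF2 and INS. By limma 1 fell and 0 rose, against 10.0% and 7.18% of all genes. At an unadjusted p under 0.05 there were 3 lower and 0 higher, against 2712 and 1985 of all 13578 genes. Limma-voom called 3 lower and 0 higher, against 10.8% and 8.01% of all genes. The list median was −0.05. EFNB1, which encodes ephrin-B1, fell from 5.22 ± 0.744 to 2.10 ± 0.414 FPKM (SD, n = 3 each; log2 difference −1.01, limma adjusted p = 0.00994; the highest without 1 library was 0.0524). EFNA1, an ephrin-A ligand of EPHA2, was the most abundant ligand and read 124, 123 and 144 FPKM in DMSO against 75.6, 35.0 and 85.1 FPKM under the inhibitor. All inhibitor libraries were below DMSO, but with all libraries EFNA1 was not called (−1.08, adjusted p = 0.0693); without inhibitor replicate 2 it was (−0.69, adjusted p = 0.00317). EFNA4 was similar in pattern (−0.84, adjusted p = 0.0573, and −0.58, adjusted p = 0.0118, without that library). Both were called lower by limma-voom (adjusted p = 0.049 and 0.0452). EFNB2, the ligand of EPHB4, had a difference of 0.15 (adjusted p = 0.492).

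For the PDGF receptors, transcripts of the A and B chains were present and those of the C and D chains nearly absent. PDGFB, the chain that binds PDGFRB, read 6.68, 7.12 and 7.78 FPKM in DMSO against 10.3, 6.44 and 10.6 FPKM under the inhibitor (0.28, limma adjusted p = 0.347). Inhibitor replicates 1 and 3 were above all DMSO libraries and replicate 2 below them; without replicate 2, PDGFB was called higher (0.49, adjusted p = 0.00622). PDGFA read 7.16, 7.50 and 7.76 FPKM in DMSO against 5.47, 10.5 and 5.17 FPKM under the inhibitor (−0.13, adjusted p = 0.731); without replicate 2 it was called lower (−0.42, adjusted p = 0.00663). PDGFC had no value above 0.0122 FPKM and PDGFD none above 0.144 FPKM. PDGFA, PDGFC, PDGFD and EFNB2 were picked out after their values were seen. Of the 12 ligands, 4 fell and 2 rose without inhibitor replicate 2, against 23.1% and 17.5% of all genes.

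Among 22 proteins that bind ligands or process receptors, 11 entered the fit. By limma 1 fell and 0 rose, against 10.0% and 7.18% of all genes. At an unadjusted p under 0.05, 3 were lower and 1 higher, against 2712 and 1985 of all 13578 genes. Limma-voom called 1 lower and 0 higher, against 10.8% and 8.01% of all genes. The list median was −0.06. IGFBP1, which holds insulin-like growth factors in the extracellular fluid, fell from 7.95 ± 0.920 to 2.35 ± 1.06 FPKM (SD, n = 3 each; log2 difference −1.47, limma adjusted p = 0.0159; the highest without 1 library was 0.0766). IGFBP3, IGFBP4 and IGFBP6, the most abundant of the list, had differences of 0.30, −0.60 and −0.73 (adjusted p = 0.164, 0.148 and 0.119). When inhibitor replicate 2 was left out, these 3 were called, at 0.41, −0.31 and −0.40 (adjusted p = 0.00343, 0.0301 and 0.0128), and over the list 3 rose and 4 fell. Over all genes, the fit without that library called 17.5% higher and 23.1% lower. With the length trend removed 2 rose and 3 fell, against 10.0% and 10.8% of all genes.

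Adaptors and signalling enzymes that act just below the receptors went both ways. Of 38 listed, 29 entered the fit, 5 fell and 2 rose (limma), against 10.0% and 7.18% of all genes, with a median of −0.01. Unadjusted counts (limma, p under 0.05) were 8 lower and 5 higher, against 2712 and 1985 of all 13578 genes. Limma-voom called 5 lower and 4 higher, against 10.8% and 8.01% of all genes. VAV3 rose from 0.901 ± 0.101 to 4.26 ± 0.262 FPKM (SD, n = 3 each; log2 difference 1.47, adjusted p = 0.0018); it entered the fit only through the inhibitor libraries, so it had to differ. FYN, a SRC-family kinase, rose by 0.39 (adjusted p = 0.0416). SRC itself fell by 0.71 (adjusted p = 0.022), the adaptor GRB7 fell by 0.67 (adjusted p = 0.0291), NCK2, which links receptors to actin, fell by 0.56 (adjusted p = 0.023), CRKL fell by 0.54 (adjusted p = 0.0468) and the phospholipase PLCG1 fell by 0.50 (adjusted p = 0.0421). The adaptors and effectors with the most transcript, IRS2, STAT3 and SHC1, had differences of 0.09, 0.28 and −0.11 (adjusted p = 0.691, 0.336 and 0.532). Apart from VAV3, each of the called genes kept its call in only 1 or 2 of the 6 fits without 1 library. The counts were 9 lower and 4 higher without inhibitor replicate 2, against 23.1% and 17.5% of all genes. In each fit without 1 DMSO library there was 1 call in all, against 478 to 579 of all 13578 genes.

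Genes listed as attenuators of receptor signalling were lower or not called. The list was written from general knowledge, and whether each member attenuates these receptors was not tested. Of 32 listed, 27 entered the fit. By limma 11 fell and 0 rose, against 10.0% and 7.18% of all genes. At an unadjusted p under 0.05 there were 13 lower and 0 higher, against 2712 and 1985 of all 13578 genes. Limma-voom called 12 lower and 0 higher, against 10.8% and 8.01% of all genes. Of these 12, 4 had passed the filter through 1 group only. Of the 11, 3 passed the filter only through the DMSO libraries, where they were high, and so had to differ: SPRY2, SPRY4 and SOCS2. Among genes with a library at 1 FPKM or more in both groups, 8 of 23 attenuators fell (34.8%), against 9.39% of all 13038 such genes. Medians were −0.21 for these attenuators and −0.06 for all such genes. The list was written with earlier results of these data known, so these shares are a description and not a test. SPRY2, a Sprouty feedback inhibitor of RAS-MAPK signalling, fell from 2.38, 1.62 and 2.29 FPKM to 0.301, 0.123 and 0.141 FPKM (log2 difference −1.38, SE 0.16, adjusted p = 0.00492). SPRY4 fell by 1.07 (adjusted p = 0.00625) and SOCS2, a cytokine and growth hormone feedback inhibitor, fell by 1.17 (adjusted p = 0.00771). SPRED2, a RAS-MAPK inhibitor related to the Sproutys, read 8.65, 8.51 and 8.16 FPKM in DMSO against 3.79, 2.86 and 3.94 FPKM under the inhibitor (−1.07, adjusted p = 0.00547). SH2B3, also called LNK, fell by 1.06 (adjusted p = 0.00582). The phosphatase UBASH3B fell by 0.77 (adjusted p = 0.0108), the SOCS-box protein SPSB1 fell by 0.59 (adjusted p = 0.018) and LRIG1, a membrane protein that promotes receptor degradation, fell by 0.57 (adjusted p = 0.0319). SOCS3 (−0.91), LRIG2 (−0.49) and the phosphatase PTPN1 (−0.43) complete the 11; these 3 were picked out with their values in view. The most abundant of the list, the lipid phosphatase INPPL1, ERRFI1 and the receptor phosphatase PTPRF, had differences of −0.36, −0.11 and −0.12 (adjusted p = 0.0781, 0.636 and 0.598). SPRED2 and SH2B3 were called without each library in turn. The list had 17 lower and 0 higher without inhibitor replicate 2, against 23.1% and 17.5% of all genes. Of the 17, 4 had passed the filter through 1 group only. In each fit without 1 DMSO library 5 were lower, against 264 to 317 of all 13578 genes. These 5 were SPRED2, SH2B3 and the 3 that had to differ. So of the 8 attenuators called among genes at 1 FPKM in both groups, only SPRED2 and SH2B3 kept their call there.

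**Figure D4:**
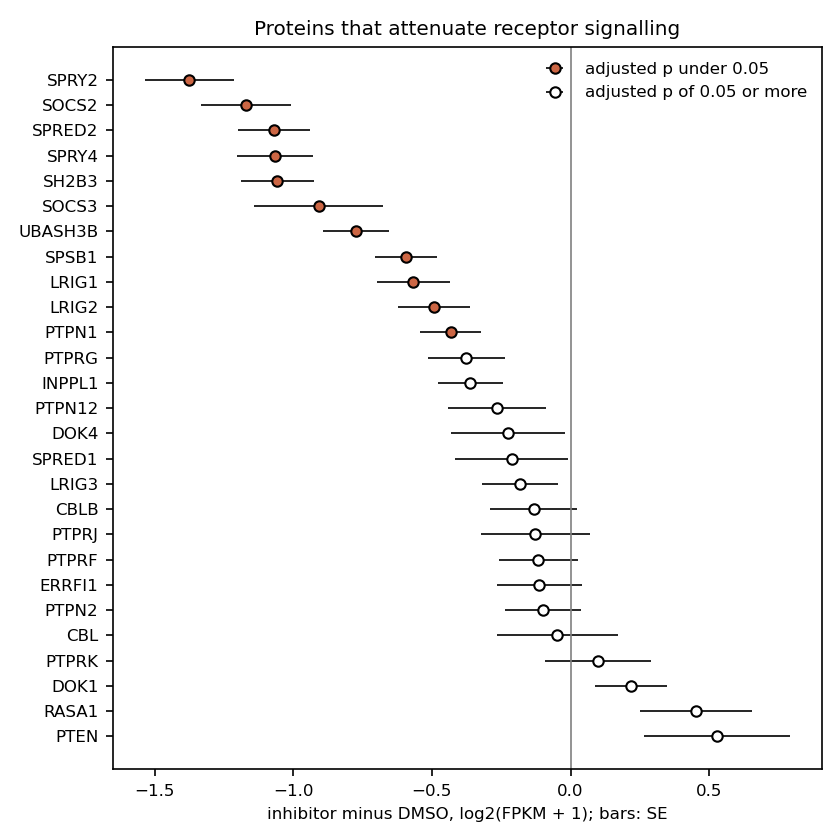
Difference of inhibitor minus DMSO on the log2(FPKM + 1) scale for the 27 tested genes listed as attenuators of receptor signalling. Bars are standard errors and filled points have an adjusted p under 0.05 (limma). The 11 filled points all lie below 0, from −0.43 for PTPN1 to −1.38 for SPRY2.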

How the data were processed

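The authors deposited 1 table of FPKM values, 1 column per library, with a gene length in bases for each gene, per the file headers. Per the submitters' processing notes, reads were placed on hg38. Per the labels' protocols, a directional kit was used on total RNA. No aligner, counter or use of strand is given in the sources used here. Multiplied by gene length and divided by 1 factor per library, 100% of the FPKM values above 0 came out as whole reads to within 0.01 reads. Replicates differed by more than sampling noise (chi-square per degree of freedom 2.55 to 113), so each library counted as 1 replicate.

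Values were fitted as log2(FPKM + 1) with limma 3.58.1 in R 4.3.3 (eBayes with its intensity trend, no block, two-sided) for the 13578 genes that reached 1 FPKM in 3 or more libraries, with Benjamini-Hochberg adjustment over all of them and a threshold of 0.05. The fit was also run on simulated reads with the same spread in every library. No simulated library stood apart as inhibitor replicate 2 did, so that run does not speak of calls that depend on this library. Receptors and gene lists were chosen with earlier results of these data known. Genes named were the 10 receptors, CSF1R, KIT, KDR, PRMT5, the 5 genes nearest to PDGFRB and, from each of 5 pathway lists, up to 8 called genes by adjusted p and the 3 with the highest mean FPKM; others, marker genes apart, are said to be chosen after their values were seen. Alternatives were pseudocounts of 0.1 and 0.5, no filter, a filter at 5 FPKM, TPM, quantile normalization, no trend, a replicate block, removal of a trend on gene length (loess, span 0.3), limma-voom on recovered reads and leaving out each library. Python 3.11.15, pandas 2.3.3 and matplotlib 3.10.9 were used for the rest.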

Additional observations from a re-analysis of the deposited data

How the results depend on the processing

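Among the 10 receptors 2 were called under each alternative on all libraries except the filter at 5 FPKM, which leaves PDGFRB untested and gave 1. Leaving out 1 library gave 1 to 5 calls among the receptors, 1 to 6 among the other receptor tyrosine kinases, 0 to 6 among the ligands, 0 to 7 among ligand-binding and receptor-processing proteins, 1 to 13 among adaptors, 5 to 17 among attenuators and 478 to 5513 over all genes, the highest each time without inhibitor replicate 2 and the lowest without a DMSO library. Calls over all genes numbered 2339, but 1533 with no filter, 1505 at 5 FPKM and 1478 with the replicate block. At 5 FPKM there were 0 calls among the other receptor tyrosine kinases, 0 among the ligands and 6 among the attenuators, for which no filter gave 7. The ligands had 3 calls with the length trend removed and 3 with limma-voom, ligand-binding proteins 4 with quantile normalization and 5 with the length trend removed, and adaptors 3 with no filter, 4 with quantile normalization and 2 with the replicate block. The cause was not tested. Whether the replicate numbers pair the libraries was not settled. Deviations of same-numbered libraries correlated at −0.02, 0.16 and 0.25. DMSO replicates 2 and 3 correlated best with the inhibitor library of the same number, and DMSO replicate 1 with inhibitor replicate 2 (0.07). The difference of PDGFRB depended on the scale of low values, at 2.07 and 1.75 with pseudocounts of 0.1 and 0.5 and 1.87 as TPM. At this depth 1 read of PDGFRB is 0.00855 to 0.0105 FPKM, so counting error weighs most on its DMSO values.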

Other observations

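LTK, a receptor related to ALK, and GAB1, an adaptor that binds MET, were too low to be tested and were picked out after their values were seen. LTK read 0.128, 0.254 and 0.174 FPKM in DMSO against 1.12, 1.11 and 0.914 FPKM under the inhibitor, with no overlap between the groups. GAB1 read 0.486, 0.567 and 0.541 FPKM in DMSO against 0.898, 1.45 and 1.07 FPKM under the inhibitor, again without overlap. SOS1, the exchange factor that activates RAS below most of these receptors and picked out in the same way, read 3.70, 3.53 and 3.08 FPKM in DMSO against 6.59, 15.0 and 6.38 FPKM under the inhibitor. Every inhibitor library was above every DMSO library, yet SOS1 missed the threshold with all libraries (limma, log2 difference 1.12, adjusted p = 0.0516) and passed it without inhibitor replicate 2 (0.76, adjusted p = 0.00212), the library in which it was highest.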
